A study of Homo sapiens with 24 samples.

Results

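The response of A549 cells to interferon beta (IFN) after 12 h was measured in cells that carried a control siRNA, by comparing 3 IFN-treated libraries with 3 mock-treated libraries. All genes with at least 1 TPM (a length-scaled share of the transcripts of a library) in at least 3 of these 6 libraries were described, which gave 14400 of the 60609 genes in the table. A549 is an established human line from a lung adenocarcinoma. Cells were transfected for 48 h with an siRNA against firefly luciferase (siFLuc), an insect gene absent from human cells, and then treated for 12 h, either with IFN (1000 U/mL) or mock. The series also holds siFLuc cells at 8 h and cells given an siRNA pool against BOP1 (siBOP1), a factor of large ribosomal subunit assembly, with the same treatments at both times: 24 libraries in 8 groups of 3. All cells, the mock-treated ones included, had been through siRNA transfection, and no untransfected cells were analysed here. Nothing in the labels says that the libraries of a group came from separate cultures, so the p-values measure the spread between these libraries, which may be technical.

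Type I interferon binds a receptor made of IFNAR1 and IFNAR2, and the kinases JAK1 and TYK2 attached to it phosphorylate STAT proteins, among them STAT2. With IRF9 these form ISGF3, a complex that binds a promoter sequence called the interferon-stimulated response element (ISRE) and switches on a large set of interferon-stimulated genes. Their products sense viral RNA and DNA, block viral entry, translation and replication, present antigen on class I molecules, and restrain the pathway itself. Airway epithelial cells respond in this way to the interferon made during infection of the lung.

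The letters of the ISRE core (GAAA, any 2 bases, then GAAA, searched on both strands) are shown in capitals in the 8 stretches that follow, which run from 150 bases before the annotated transcript start to 30 bases after it (RefSeq, GRCh38.p14, written 5′ to 3′ along the gene). IFIT1, IFI27 and ISG15 were among the genes that rose most, MX1 holds its match just after the start, TAP1 and B2M serve class I antigen presentation, XAF1 rose strongly without a match, and ACO1 fell.
IFIT1, chr10:89392473-89392652, plus strand: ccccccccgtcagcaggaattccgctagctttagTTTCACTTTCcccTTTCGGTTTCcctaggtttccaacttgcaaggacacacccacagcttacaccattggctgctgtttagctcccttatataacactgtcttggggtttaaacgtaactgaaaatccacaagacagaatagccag
IFI27, chr14:94110586-94110765, plus strand: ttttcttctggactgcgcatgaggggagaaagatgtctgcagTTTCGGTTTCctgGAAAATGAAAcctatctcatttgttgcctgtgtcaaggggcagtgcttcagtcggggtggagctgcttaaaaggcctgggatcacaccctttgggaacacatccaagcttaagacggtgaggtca
ISG15, chr1:1013347-1013526, plus strand: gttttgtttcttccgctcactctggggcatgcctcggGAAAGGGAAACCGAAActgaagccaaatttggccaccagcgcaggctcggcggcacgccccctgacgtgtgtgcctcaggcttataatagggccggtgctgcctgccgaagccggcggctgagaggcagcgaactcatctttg
MX1, chr21:41420408-41420587, plus strand: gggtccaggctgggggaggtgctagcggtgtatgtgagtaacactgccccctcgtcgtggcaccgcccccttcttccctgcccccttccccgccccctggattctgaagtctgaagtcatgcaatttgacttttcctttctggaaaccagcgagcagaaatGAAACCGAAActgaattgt
TAP1, chr6:32853675-32853854, minus strand: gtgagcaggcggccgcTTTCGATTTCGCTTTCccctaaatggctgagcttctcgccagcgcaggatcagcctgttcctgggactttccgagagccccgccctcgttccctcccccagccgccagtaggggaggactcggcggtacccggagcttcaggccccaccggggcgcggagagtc
B2M, chr15:44711367-44711546, plus strand: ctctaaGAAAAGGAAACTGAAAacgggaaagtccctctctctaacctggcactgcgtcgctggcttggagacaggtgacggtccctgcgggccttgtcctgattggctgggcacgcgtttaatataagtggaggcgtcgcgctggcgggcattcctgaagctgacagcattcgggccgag
XAF1, chr17:6755896-6756075, plus strand: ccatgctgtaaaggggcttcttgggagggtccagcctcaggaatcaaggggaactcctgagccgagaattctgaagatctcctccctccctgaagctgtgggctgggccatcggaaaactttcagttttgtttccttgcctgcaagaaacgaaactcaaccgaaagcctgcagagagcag
ACO1, chr9:32384493-32384672, plus strand: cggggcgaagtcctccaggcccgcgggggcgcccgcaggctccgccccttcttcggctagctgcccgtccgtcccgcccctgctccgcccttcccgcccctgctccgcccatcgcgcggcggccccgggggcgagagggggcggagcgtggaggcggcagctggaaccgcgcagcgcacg

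The comparison called 15% of the genes tested. With limma on log2(TPM + 1) values and Benjamini-Hochberg adjustment, 1099 genes (7.63%) were higher and 1054 (7.32%) were lower at an adjusted p under 0.05. Higher genes moved further than lower ones. A change of at least 1 on the log2(TPM + 1) scale was reached by 511 of the higher genes (3.55% of all tested) and 86 of the lower ones (0.597%). The median change was 0.93 among the higher genes and -0.56 among the lower ones, and -0.07 over all genes tested, with quartiles of -0.26 and 0.16. A fit that took the column number as a block called 1772 of the 14400 genes higher and 2576 lower. Its counts in the gene lists that follow are therefore to be read beside these numbers, and not beside 7.63% and 7.32%. Median-of-ratios rescaling called 1348 higher and 844 lower, so that 61.5% of calls were higher in place of 51.0%. Of the genes that rose by at least 1, 112 had a mock mean under 1 TPM. A gene under 1 TPM in every mock library was tested only if every IFN library reached 1 TPM. Such genes could enter the test only as rises, so the filter in part sets their number and direction. The same holds for genes named later with every mock value at or near 0, and their p-values are to be read with this limit. The 16 genes that rose by 6 or more had a median mock level of 1.88 TPM and a median IFN level of 471 TPM. Changes are differences of log2(TPM + 1) unless a ratio of TPM means is named, and the pseudocount of 1 shrinks the change of low genes.

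**Figure D1:**
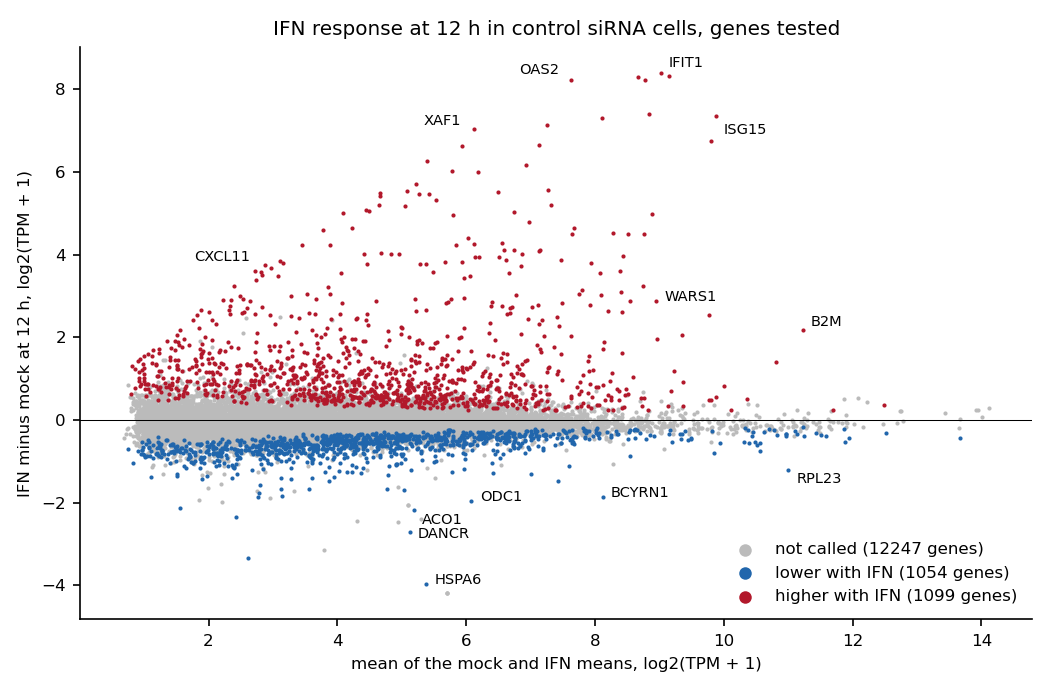
Each point is 1 of the 14400 genes tested, with its mean level on the x axis (log2(TPM + 1) of the average of both group means) and its change with IFN at 12 h on the y axis (log2(TPM + 1)). Rises reach 8.39 (IFIT1), whereas RPL23, 1 of the most abundant genes to fall, lies at -1.21.

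The 6 libraries were alike in breadth but 1 of them stood apart. Between 14110 and 14429 genes per library reached 1 TPM, and the depth of the libraries is unknown because TPM does not keep it. The mock library numbered 4 had 6.86% of its TPM in mitochondrial genes, against 11.46% to 15.01% in the other 5, and 9.5% in its 10 highest genes, against 12.27% to 15.01%. By column number, 3608 genes differed when number 4 was set against the average of the other 2, and 1 gene differed between numbers 2 and 1. The cells carried epithelial transcripts, with KRT8 at 2874 to 3803 TPM and KRT18 at 2495 to 2862 TPM. ALDH1A1, an enzyme A549 cells are known to make, was at 2911 to 3391 TPM. In the list of 12 epithelial markers of A549 cells, 10 passed the filter, and 2 of these were higher and 3 lower with IFN. Both shares lay above those of all genes tested, 7.63% higher and 7.32% lower, so part of this list changed with IFN. The members called and those that did not pass the filter are not named here. Of 8 markers of type II pneumocytes, the lung cells from which the line is held to derive, 3 passed the filter, and the surfactant genes SFTPA1, SFTPB and SFTPC were at 0 to 0.396 TPM. Of 13 leukocyte markers 3 passed the filter and 1, the macrophage marker CD68, was higher with IFN. The summed level of this list was 44.5 to 55.0 TPM in mock and 289.1 to 350.4 TPM with IFN, nearly all of it CD68. The defining blood cell genes CD3E, CD4, MS4A1 and FCGR3A were listed at 0 in all 6 libraries, PTPRC lay between 0 and 0.021 TPM, and the endothelial gene VWF was listed at 0. Among the type II markers LAMP3 alone was called (higher), and that list summed to 15.6 to 19.3 TPM in mock and 49.7 to 64.7 TPM with IFN.

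Lists of genes were read by how many of their tested members were called, beside the shares over all genes tested. The 12 interferon-related lists together held 226 genes, of which 204 were tested. Of these, 156 were higher (76.5%, against 7.63% of all genes) and 2 were lower, with a median change of 2.20. Together the 226 genes took 0.825%, 0.845% and 1.05% of the TPM of the mock libraries numbered 1, 2 and 4, and 4.55%, 4.65% and 3.89% of the IFN libraries with those numbers. Values of single libraries are given in this order of column numbers throughout.

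**Figure D2:**
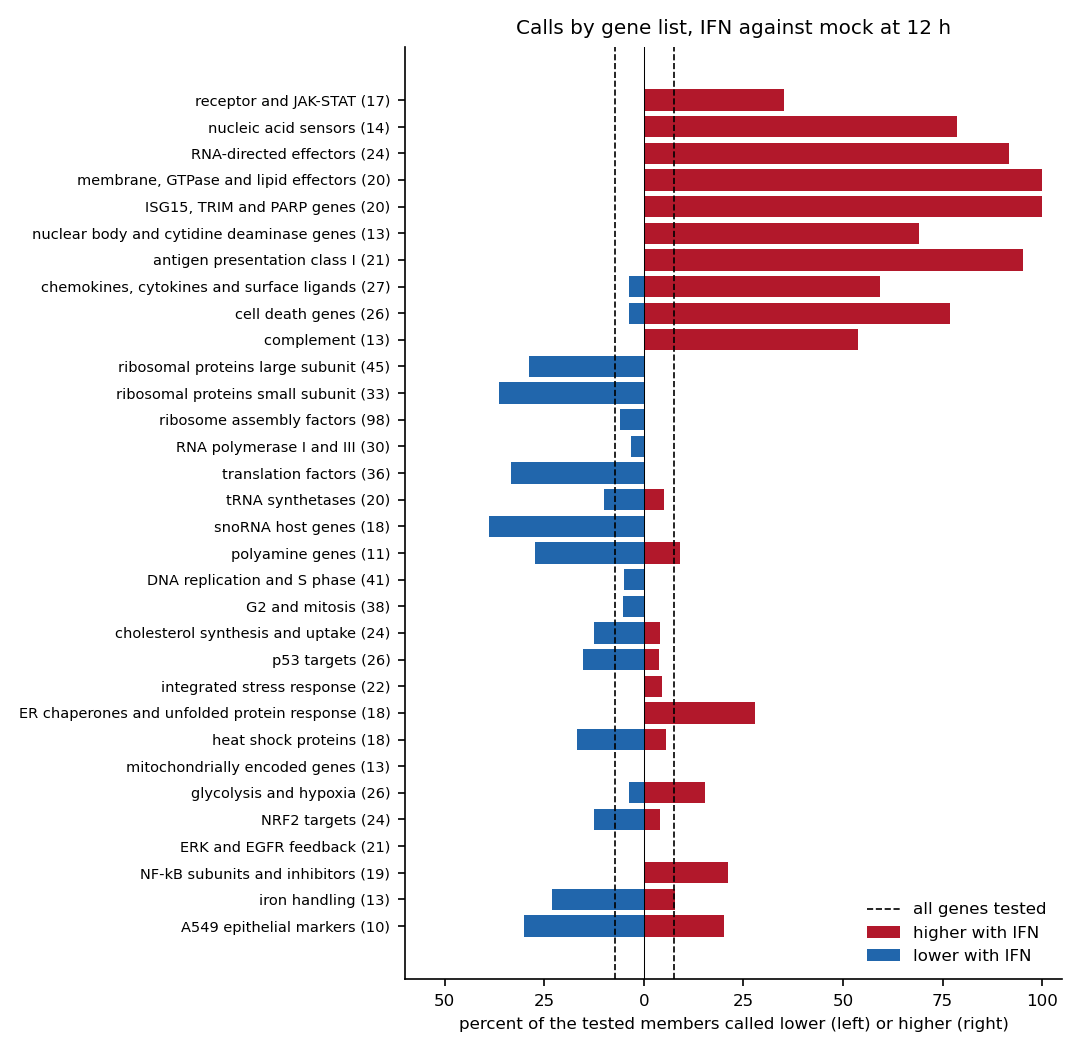
Bars give the percent of each list's tested members (number in brackets) called higher (right) or lower (left) with IFN at 12 h, for lists with at least 10 tested members, and dashed lines mark the shares over all genes tested, 7.63% and 7.32%. All 20 tested members of the membrane effector list and of the ISG15, TRIM and PARP list were higher, while the 2 ribosomal protein lists held lower calls only.

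The receptor chains and their kinases did not pass the test, whereas STAT2, IRF9, SOCS1 and USP18 rose. Of 17 tested genes of the receptor and JAK-STAT list, 6 were higher and 0 were lower, and the median change was 0.32. IFNAR1 measured 25.9, 23.3 and 27.6 TPM in mock and 20.5, 19.0 and 25.6 TPM in IFN libraries, which overlap (change -0.24, limma adjusted p = 0.237). IFNAR2 was at 14.4, 15.7 and 21.6 TPM in mock and 22.6, 20.4 and 28.5 TPM with IFN, again with overlap, and its change of 0.45 did not pass (limma adjusted p = 0.0693, and 0.0191 with the block). JAK1 (-0.08, limma adjusted p = 0.66) and TYK2 (-0.17, 0.6) also did not pass.

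STAT2, a subunit of ISGF3, went from 10.6, 10.3 and 9.42 TPM to 174, 181 and 157 TPM (3.94, SE 0.16, limma adjusted p = 3.13e-14). IRF9, the ISGF3 subunit that brings specificity for the ISRE, stood at 24.8, 31.1 and 15.9 TPM in mock and 172, 147 and 171 TPM with IFN (2.77, SE 0.21, adjusted p = 1.57e-09). In neither gene did the groups overlap, which was so, in the same direction, for 11.4% of all genes tested. STAT3, a related factor activated mainly by IL6-type cytokines, rose less, by 0.56 (adjusted p = 0.00981), and its call was lost when mock library 1 or 2 or IFN library 4 was left out or only the groups compared were fitted (limma adjusted p up to 0.14, the value of the last).

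Among negative regulators of the pathway, USP18 and SOCS1 rose and SOCS3 did not pass. USP18, which binds IFNAR2 and blocks further signalling, was at 6.75, 8.75 and 9.15 TPM in mock libraries and 179, 167 and 186 TPM in IFN libraries, a 21.6-fold ratio with a change of 4.28 (SE 0.13, limma adjusted p = 1.42e-16). SOCS1, an inhibitor of the JAK kinases, was at 0.731, 0.662 and 3.59 TPM and then 22.6, 23.8 and 11.8 TPM (3.05, SE 0.34, adjusted p = 7.33e-07). For SOCS1 the mock library numbered 4 was the highest mock value, and the change was 3.53 without it. SOCS3 overlapped between groups, with 91.8 TPM in the mock library numbered 4 against 17.7 and 19.8 TPM in the other mock libraries (0.50, limma adjusted p = 0.574), and it did not pass without that library either (1.25, adjusted p = 0.0715).

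Among interferon regulatory factors, 3 of 5 tested genes were higher and 0 lower. IRF7, which drives interferon gene transcription in infected cells, showed the largest change of the list, from 6.5, 5.60 and 4.28 TPM to 298, 293 and 310 TPM (5.56, SE 0.16, limma adjusted p = 1.41e-16). IRF1, an activator of many of the same promoters, was at 31.4, 33.3 and 113 TPM in mock and 286, 284 and 268 TPM with IFN. Its change was 2.48 (SE 0.29, limma adjusted p = 1.8e-06), and 3.07 without the mock library numbered 4. IRF2 rose by 1.91 (adjusted p = 2.17e-08), and IRF3, which is activated by phosphorylation, did not pass (0.16, adjusted p = 0.469). Of 9 listed interferon genes 1 passed the filter, IFNE, which was not called (0.47). IFNB1, IFNA1 and IFNA2 were listed at 0 in all 6 libraries, and the type III genes IFNL1, IFNL2 and IFNL3 were listed at 0 in mock and between 0.142 and 1.16 TPM with IFN, below the filter. With no filter, 5 of the 9 were tested and 2, IFNL1 and IFNL3, were called higher.

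**Figure D3:**
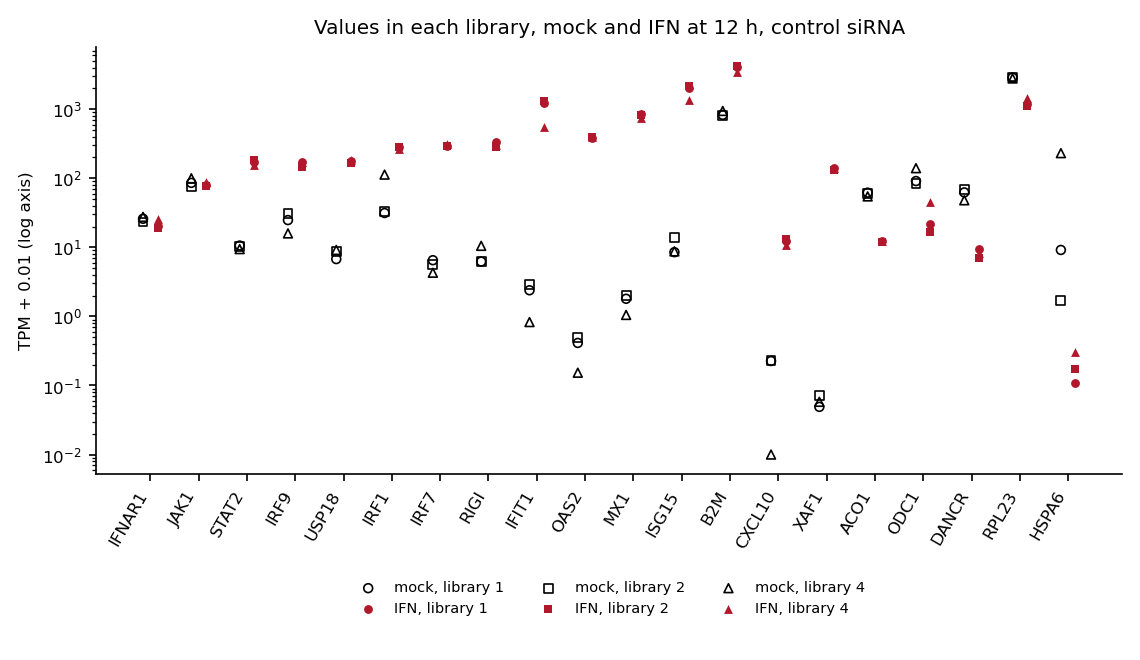
Points give the TPM of 20 genes in each of the 6 libraries at 12 h (log axis, with 0.01 added so that zeros can be drawn), open black for mock and red for IFN, with the marker shape giving the column number. Mock and IFN points overlap for IFNAR1 and JAK1, stand apart for the interferon-stimulated genes, and in HSPA6 the mock library numbered 4 lies far above the other mock points.

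Sensors of foreign nucleic acid rose together, with 11 of 14 tested genes higher, 0 lower and a median change of 2.49. RIGI, which detects viral RNA ends, went from 6.21, 6.24 and 10.5 TPM to 338, 288 and 302 TPM (5.20, SE 0.16, limma adjusted p = 3.49e-16). IFIH1, the MDA5 sensor of long double-stranded RNA, went from 3.78, 2.74 and 2.17 TPM to 183, 187 and 156 TPM (5.51, SE 0.14, adjusted p = 2.79e-17). Both were above every mock value in every IFN library. TLR3, an endosomal sensor, rose by 4.02 and DHX58, a regulator of both RNA helicases, by 3.49. ZBP1, which senses left-handed nucleic acid and can start necroptosis, was listed at 0 in the mock libraries and at 6.21, 5.27 and 4.58 TPM with IFN. On the DNA-sensing side, IFI16 rose by 3.73 (15.2 ± 1.77 to 214 ± 16.2 TPM, SD, n = 3 each, limma adjusted p = 7.82e-16). STING1 rose by 1.53 to no more than 3.34 TPM. CGAS, the enzyme upstream of STING1, did not pass (0.26, adjusted p = 0.57). It was at 6.74, 6.5 and 19.8 TPM in mock and 10.5, 10.7 and 14.4 TPM with IFN, and without the mock library numbered 4 its change was 0.74 (adjusted p = 0.00519).

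RNA-directed effectors formed 1 of the strongest groups, with 22 of 24 tested genes higher, 0 lower and a median change of 4.03. Their summed level was 311 to 339 TPM in the mock libraries and 5781 to 8460 TPM in the IFN libraries. IFIT1, which captures viral RNA lacking the host cap methylation, showed the largest change of any gene called, from 2.38, 2.88 and 0.818 TPM to 1242, 1306 and 553 TPM (8.39, SE 0.34, limma adjusted p = 3.13e-14). Its ISRE matches, in the sequence given earlier, are centred at -98 and -111 from the start of IFIT1. In IFIT2 (8.31) and IFIT3 (7.39) the IFN library numbered 4 was again the lowest, at 637 and 498 TPM against at least 1367 and 1109 TPM in the other 2. IFIT5 rose less, by 2.64. IFIT genes are close paralogs, and how reads shared between them were assigned is not stated.

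The oligoadenylate synthetases, which make a messenger in response to double-stranded RNA, all rose but from different basal levels. OAS2 was almost absent in mock at 0.403, 0.486 and 0.143 TPM and reached 387, 398 and 398 TPM, a 1147-fold ratio of means (8.21, SE 0.15, limma adjusted p = 8.29e-20). OAS1 began at 25.2, 27.6 and 30.6 TPM and reached 1009, 1009 and 729 TPM (4.98, SE 0.18). OAS3 went from 25.2 ± 1.86 to 595 ± 6.45 TPM (4.51) and the catalytically inactive OASL from 1.17 ± 0.312 to 302 ± 27.1 TPM (7.13; SD, n = 3 in each group). EIF2AK2, the PKR kinase that halts translation on double-stranded RNA, rose by 2.56 and the RNA-editing enzyme ADAR by 2.03, both with SE at or under 0.13. SLFN11 (0.38) and SLFN13 (0.67, limma adjusted p = 0.0625, and 0.0193 with the block) were the 2 tested members not called.

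Every one of the 20 tested genes of the membrane, GTPase and lipid effector list was higher, with a median change of 5.45, and the 21st, CH25H, did not pass the filter. MX1, a dynamin-like GTPase that traps viral nucleocapsids, went from 1.79, 1.99 and 1.04 TPM to 865, 832 and 742 TPM, a 506-fold ratio (8.30, SE 0.19, limma adjusted p = 4.11e-18). Its paralog MX2 rose by 6.26, from at most 0.112 TPM to 96.5, 84.3 and 66.2 TPM. In IFI27, a mitochondrial protein gene widely used as a blood marker of interferon exposure, 2.05, 2.25 and 1.42 TPM became 907, 1010 and 702 TPM (8.23, SE 0.28, adjusted p = 1.52e-15). The mitochondrial antiapoptotic gene IFI6 reached 1773 ± 231 TPM from 15.7 ± 4.32 TPM (SD, n = 3; 6.75).

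Genes of the IFITM family, which block fusion of virus with endosomes, differed in their starting levels. IFITM1 was low in mock at 1.81, 5.06 and 1.07 TPM and reached 586, 728 and 326 TPM (7.31, SE 0.37, limma adjusted p = 1.43e-12). IFITM2 was at 83.0, 98.8 and 81.4 TPM in mock and rose by 2.87, and IFITM3 rose by 4.51 from 31.8 to 40.2 TPM. BST2, tetherin, which holds budding virions at the cell surface, rose by 6.01 to 108 ± 29.4 TPM (SD, n = 3). RSAD2, viperin, and its neighbour CMPK2, which together supply a chain-terminating nucleotide, rose by 5.49 and 6.62. RSAD2 stayed at 37.4 to 55.1 TPM with IFN and CMPK2 at 114 to 127 TPM. Guanylate-binding proteins, which coat intracellular pathogens, rose by 4.80 (GBP1), 5.53 (GBP4) and 2.01 (GBP2).

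The ubiquitin-like modifier ISG15 reached 2049, 2181 and 1362 TPM from 8.50, 13.9 and 8.73 TPM (7.36, SE 0.24, limma adjusted p = 6.94e-16). All 20 genes of its list were tested and higher, with a median of 3.62, so the enzymes that attach ISG15 rose with it: the activating enzyme UBA7 by 4.64, the conjugating enzyme UBE2L6 by 3.96 and the ligase HERC5 by 4.95. UBA7 was low in mock (0.426 ± 0.208 TPM) and reached 34.9 ± 7.86 TPM, whereas UBE2L6 went from 34.1 to 45.8 TPM in mock to 612 to 703 TPM with IFN. TRIM22, an antiviral ubiquitin ligase, rose by 6.65 (0.988 to 2.92 TPM in mock, 239 to 298 TPM with IFN). PARP10, an ADP-ribosyltransferase, rose by 5.47 to 74.6, 74.4 and 75 TPM, from 1.61, 0.568 and 0.223 TPM. The smallest change of the list was that of TRIM26 (1.08, limma adjusted p = 0.00227), whose mock value of 36.7 TPM in the library numbered 4 stood above the other 2 (16.6 and 14 TPM), and without it the change was 1.48.

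In the list of nuclear body and cytidine deaminase genes, 9 of 13 tested members were higher and 0 lower. PML and SP100, the scaffold proteins of the bodies, rose by 2.84 and 3.02. SP100 was tight across libraries, at 23.3, 23.0 and 22.7 TPM in mock and 191, 191 and 197 TPM with IFN. SP110 rose by 4.25. SAMHD1, which destroys the nucleotides that retroviruses need, rose by 4.11 to 222, 225 and 157 TPM. Of the cytidine deaminases that mutate viral DNA, APOBEC3F rose by 2.45 and APOBEC3G by 1.74, the latter to at most 3.79 TPM.

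Class I antigen presentation rose as a block: 20 of 21 tested genes were higher, 0 lower, with a median of 2.07, and the summed level went from 2387 to 2474 TPM in mock to 8442 to 10143 TPM with IFN. B2M, the light chain shared by all class I molecules, accounted for much of that sum, going from 828, 818 and 943 TPM to 4116, 4164 and 3464 TPM (2.18, SE 0.08, limma adjusted p = 3.72e-15). HLA-B, a heavy chain gene, went from 60.5, 57.4 and 35.8 TPM to 664, 660 and 526 TPM (3.59), and HLA-C rose by 2.61 and HLA-E by 3.15. HLA genes are polymorphic paralogs, and reads shared between them make the single values uncertain.

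Genes that supply peptides to class I molecules rose as well. PSMB9, a subunit of the immunoproteasome, went from 12.9, 16.5 and 9.60 TPM to 230, 237 and 192 TPM (4, SE 0.15, limma adjusted p = 5.29e-15), and PSMB8 rose by 2.72. TAP1, a subunit of the peptide transporter, rose by 3.87 from 20.2, 20.5 and 24.0 TPM to 344, 355 and 291 TPM. TAP1 and PSMB9 share a divergent promoter. NLRC5, the transactivator of class I genes, rose by 3.57. CALR (0.25, limma adjusted p = 0.0138) showed the smallest change among the called members, its groups did not overlap, and its call was lost without the IFN library numbered 1 and with quantile normalization (adjusted p up to 0.191 over the alternatives). PDIA3 was the member not called (0.26, adjusted p = 0.0743, and 0.00674 with the block).

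Class II genes were mostly below the filter. Of 11 listed genes, 4 were tested and 2 were higher: CTSS, a protease that trims the class II chaperone, from 49.4, 48.7 and 36.5 TPM to 260, 278 and 194 TPM (2.41, SE 0.18, limma adjusted p = 8.74e-10), and that chaperone, CD74, from at most 0.49 TPM to 3.08 to 3.34 TPM (1.69, adjusted p = 4.97e-05). HLA-DRA stayed between 0 and 0.3 TPM in all 6 libraries. CIITA, the class II transactivator, was at 0.019 to 0.13 TPM in mock and 0.423 to 1.43 TPM with IFN, below the filter.

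Among chemokines, cytokines and surface ligands, 16 of 27 tested genes were higher and 1 lower, with a median of 1.49. CXCL10 and CXCL11, ligands of CXCR3 on activated T cells, started at or near 0. CXCL10 went from 0.216, 0.223 and 0 TPM to 12.2, 13.2 and 10.7 TPM (3.51, SE 0.13, limma adjusted p = 5.29e-15). CXCL11 was listed at 0 in the 3 mock libraries and stood at 13.8, 15.3 and 8.97 TPM with IFN. CXCL9, the third ligand of that receptor, was listed at 0 in all 6 libraries. CXCL5 and CCL2, already made in mock cells at 1081 ± 80.3 and 171 ± 32.1 TPM, rose by 0.52 and 0.88 to 1555 ± 202 and 313 ± 37.4 TPM (SD, n = 3 each).

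Other members of this list that rose were LGALS9, TNFSF13B, CD274 and CD47. LGALS9 reached 96.3, 100 and 70.7 TPM from 1.24, 1.08 and 1.38 TPM (5.32, SE 0.19, limma adjusted p = 3.05e-15). TNFSF13B, the B cell factor BAFF, rose by 4.22 to 18.1 to 22.2 TPM. CD274, the PD-L1 checkpoint ligand, was at 1.21, 1.23 and 4.05 TPM in mock and 47.7, 44.1 and 48.5 TPM with IFN (4.03, SE 0.25, adjusted p = 4.98e-11). CD47, a signal against phagocytosis, rose by 1.36. CD68, a lysosomal membrane protein and no member of this list, rose by 2.82 from 38.5 to 50.2 TPM to 285 to 347 TPM. LAMP3, another lysosomal membrane protein, rose by 5.04 from at most 0.517 TPM to 50.1, 45.1 and 32.7 TPM.

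For IL6 and CXCL8 the mock library numbered 4 held the highest mock value. IL6 was at 6.32, 4.99 and 49.2 TPM in mock and 25.3, 27 and 78.5 TPM with IFN, so that the groups overlapped (1.58, limma adjusted p = 0.0827). Its adjusted p was 0.00137 with the block, and 0.000631 without the mock library numbered 4. CXCL8, with 790 TPM in that library against 272 and 314 TPM, did not pass with it (0.45, adjusted p = 0.482) or without it (0.92, adjusted p = 0.0903). IL18, whose product needs caspase 1 for release, was the 1 member called lower, from 105, 108 and 125 TPM to 81.8, 71.1 and 90.0 TPM (-0.48, adjusted p = 0.0145), and the call was lost without mock library 4 (adjusted p = 0.0638) or IFN library 2 (0.0939). Of 19 genes of NF-kB subunits and inhibitors, 4 were higher (21.1%, against 7.63% of all genes), among them RELA (0.82) and IKBKE (0.99), and 0 lower. The blocked fit called 7 higher and 2 lower, beside 1772 and 2576 of all 14400 genes. Without the mock library numbered 4, 8 were higher and the median went from 0.33 to 0.64.

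Genes of cell death were higher in 20 of 26 cases and lower in 1. XAF1, an antagonist of the caspase inhibitor XIAP, had the largest ratio of means of the genes called with a mock mean above 0: 0.039, 0.061 and 0.048 TPM in mock and 139, 133 and 139 TPM with IFN, a 2780-fold ratio of means (7.04, SE 0.11, limma adjusted p = 9.59e-21). That ratio rests on mock values near 0, and the change of XAF1 lay between 6.95 and 9.85 over the alternatives. No ISRE core match lies in the promoter window of XAF1. TNFSF10, the death ligand TRAIL, went from 2.14, 1.48 and 0.413 TPM to 162, 154 and 112 TPM (6.00, SE 0.25, adjusted p = 3.6e-14). Its decoy receptor TNFRSF10D was the 1 member called lower, from 20.3, 18.4 and 12.3 TPM to 4.43, 4.37 and 4.79 TPM (-1.68, SE 0.24, adjusted p = 2.29e-05). The death receptor TNFRSF10A was not called (0.57, adjusted p = 0.201), but passed with the block (0.000116) and without the mock library numbered 4 (0.0346).

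Within the same list, CASP1, the inflammatory caspase, rose by 5.07 to 50.5, 41.9 and 31.2 TPM from 0.757, 0.073 and 0 TPM. CASP8, the initiator caspase of death receptors, and its inhibitor CFLAR rose by 0.93 and 1.12. Necroptosis effector MLKL rose by 1.48, but RIPK3, the kinase that activates it, was listed at 0 in all 6 libraries. APOL1, a pore-forming lipoprotein, rose by 4.49, from 18.9, 19.7 and 9.51 TPM to 459, 433 and 248 TPM.

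Of 13 tested complement genes, 7 were higher and 0 lower. SERPING1, the inhibitor of the C1 proteases, was listed at 0 in mock and stood at 12.8, 12.0 and 9.01 TPM with IFN (3.6, SE 0.28, limma adjusted p = 1.99e-09). Its target protease C1R rose by 2.27 and factor B (CFB) by 2.78, the latter from 42.8, 39.5 and 19.5 TPM to 273, 324 and 130 TPM. C3, the central component, was at 177, 166 and 109 TPM in mock and 389, 416 and 243 TPM with IFN (1.20, adjusted p = 0.0298). The call of C3 was lost without mock library 2 or 4 or IFN library 1 or 2 (limma adjusted p up to 0.123), whereas with the block its adjusted p was 1.5e-05.

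Promoter letters were set beside these rises. A RefSeq window of 250 bases before to 50 bases after the start was at hand for 10432 of the 14400 genes, by symbol. Of those that rose by 4 or more, 27 of 42 held the ISRE core on either strand (64.3%), and of those that rose by 2 to 4, 32 of 81 did (39.5%). Below that, shares were 7.87% for rises of 1 to 2, 5.99% for smaller rises, 2.13% for genes not called and 0.661% for falls under 1, and 0 of 58 windows of genes that fell by 1 or more held a match. Over all genes tested the share was 2.84%, and over all 35116 windows of the same length it was 3.57%. The letters of a STAT dimer site, TTCNNNGAA, which reads the same on both strands, were found in 19.0% and 19.8% of the windows of the 2 strongest classes and in 6.36% of all genes tested. TATAAA on either strand was in 9.52% and 8.64%, against 5.41%. The classes are those of the measured response, so these shares are a description. Matches to the ISRE core may overlap each other, as in ISG15, TAP1 and B2M among the sequences given earlier, and a match shows letters and not binding.

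**Figure D4:**
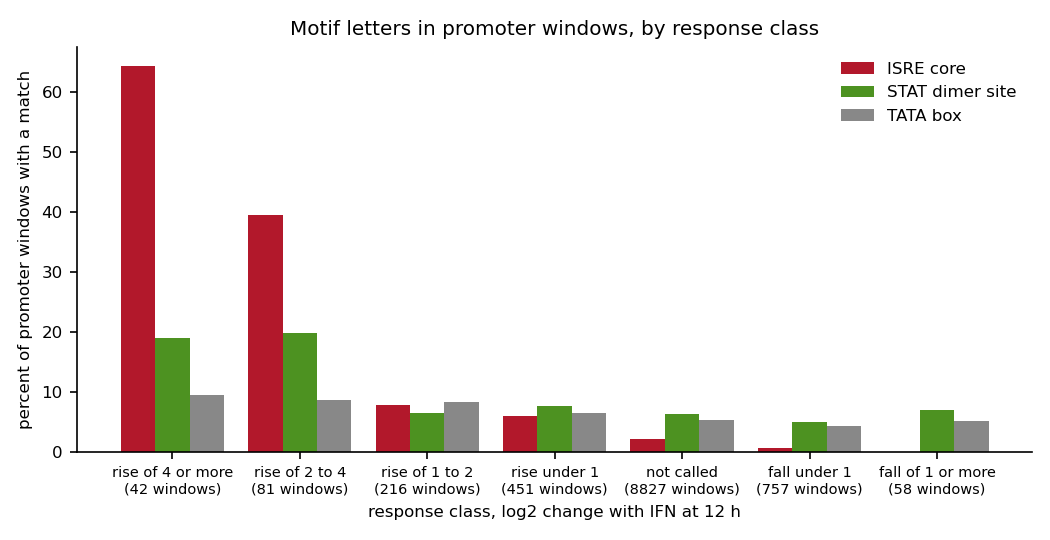
Bars give the percent of promoter windows (number of windows under each class) that hold the letters of the ISRE core, the STAT dimer site or the TATA box, by class of log2 change with IFN at 12 h. The ISRE core falls from 64.3% in the class that rose by 4 or more to 0 in the class that fell by 1 or more.

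In the 76 genes that rose by at least 1 and held an ISRE core, the match nearest the start had its centre at a median of -29.5 bases, and 57 lay before the start, 39 of them within 100 bases. IFIT1 (-98 and -111), IFI27 (-90 and -103) and ISG15 (-102 and -108) have pairs at similar distances, and TAP1 (-123 and -129) and B2M (-133 and -139) have overlapping pairs. MX1 has 1 match, centred 16 bases after the annotated start. Start sites are those of the first listed RefSeq window of each gene, and a gene with other starts can hold further matches.

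Falls were smaller and touched other functions. Genes that fell by less than 0.5 had a median mock level of 57.5 TPM (407 genes), those that fell by 0.5 to 1 of 14.2 TPM (561 genes), and 86 fell by 1 or more. Since TPM values sum to the same total in each library, what the interferon genes gained, in the shares given earlier, other genes lost, and the part of this in single falls was not tested. In bulk RNA, fewer cells that make a transcript and less of it per cell cannot be told apart. ACO1, cytosolic aconitase, which in iron-poor cells becomes the iron regulatory protein IRP1, fell with little spread, from 61.9, 59.6 and 54.6 TPM to 12.5, 11.9 and 12.2 TPM (-2.17, SE 0.10, limma adjusted p = 6e-13). Each IFN value was far below each mock value. Other iron genes moved less. Of 13 tested in the iron list, ACO1 included, 3 were lower (23.1%, against 7.32% of all genes) and 1 higher (7.69%, against 7.63%). TFRC, the transferrin receptor, was at -0.26 (limma adjusted p = 0.0452, a call lost under 10 of 16 alternatives) and STEAP3, an iron reductase, at -0.58. CP, the ferroxidase ceruloplasmin, was the member called higher (1.42).

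DANCR, a noncoding RNA that hosts a small nucleolar RNA, followed HSPA6 and RNU6-11P as the next largest fall, from 62.4, 68.3 and 48.0 TPM to 9.32, 7.08 and 8.26 TPM (-2.71, SE 0.18, limma adjusted p = 1.85e-10). BCYRN1, a brain-enriched small RNA with close copies in the genome, fell by 1.87 from 445, 439 and 416 TPM to 156, 102 and 103 TPM. Protein-coding genes with comparable falls were FAM171A1 (-1.87), ATPSCKMT (-1.83), GPATCH11 (-1.75), NT5DC2 (-1.67), RFLNB (-1.67) and FAM172A (-1.57). In each of these 6 the 3 IFN values lay below the 3 mock values, as the naming rule required and as in 16.1% of all genes tested. SERF1A (-2.35) has a near-identical copy, and RNU6-11P, a copy of a small nuclear RNA, was at 8.94, 17.2 and 4.76 TPM in mock and listed at 0 with IFN (adjusted p = 0.0273). Its call was lost on leaving out any 1 of the libraries other than mock library 4 (adjusted p up to 0.102). In 8 h cells and in siBOP1 cells neither of these 2 fell as far (SERF1A -0.26 and 0.27, RNU6-11P -0.12 and 2.52), and whether the contrasts differ did not pass a test for either.

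Ribosomal protein genes were lower or not called, and none rose. In the large subunit list, 13 of 45 tested genes were lower and 0 higher (28.9%, against 7.32% of all genes), 44 had a change below 0, and the median was -0.17 against -0.07 for all genes. In the small subunit list, 12 of 33 were lower and 0 higher (36.4%), with a median of -0.20. The small subunit count was 5 without mock library 2 and 8 without IFN library 1 or 2, with medians of -0.17 to -0.23 over single libraries left out. The blocked fit called 25 lower in the large and 19 in the small subunit list. Quantile normalization called 15 and 5 lower with medians of -0.09 and -0.13, and median-of-ratios rescaling called 9 and 3 with medians of -0.11 and -0.14, so the direction held under both but the count did not. Together the 78 genes took 16.7%, 17.7% and 16.2% of TPM in mock and 14.8%, 14.7% and 13.8% with IFN.

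RPL23 stood apart from its class, at 2867, 2930 and 2785 TPM in mock and 1184, 1110 and 1431 TPM with IFN, a ratio of 0.434 (-1.21, SE 0.13, limma adjusted p = 4.44e-07). RPL5 and RPL6 followed at -0.81 and -0.76, and RPS7 led the small subunit at -0.61 (1758, 1873 and 1673 TPM to 1179, 1124 and 1168 TPM). RPL3, RPL7, RPL10A and RPS3A lay between -0.54 and -0.57. Reads from the many processed copies of these genes could be shared in ways the table does not show.

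Of translation factors, 12 of 36 were lower (33.3%) and 0 higher, with a median of -0.21. EIF4B, which stimulates unwinding of mRNA leaders, was at 268, 259 and 262 TPM in mock and 116, 111 and 138 TPM with IFN (-1.11, SE 0.09, limma adjusted p = 1.09e-08). EIF3L, a subunit of the scaffold that recruits the small subunit, fell by 0.87 from 478, 493 and 476 TPM to 283, 238 and 274 TPM. EIF1 fell by 0.47, EEF1B2 by 0.45, PABPC1 by 0.32 and EEF1A1 by 0.31. The blocked fit called 18 lower and 1 higher.

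**Figure D5:**
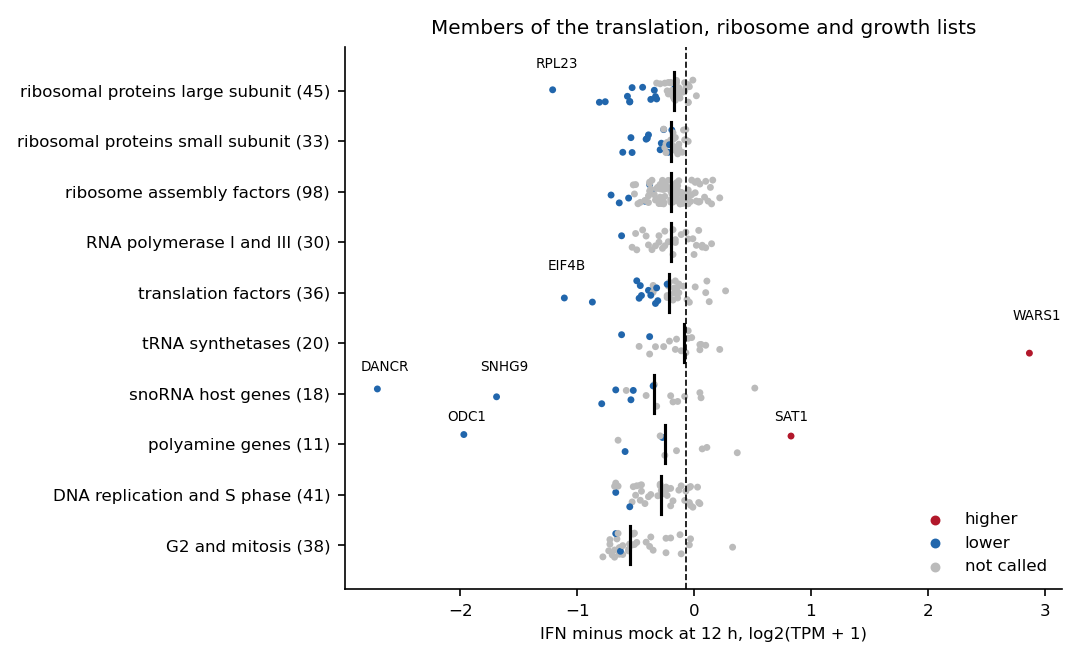
Points give the change with IFN at 12 h (log2(TPM + 1)) of each tested member of 10 lists, red for higher, blue for lower and grey for not called, with the list's median as a black bar and the median of all genes tested (-0.07) as a dashed line. RPL23, EIF4B, DANCR, SNHG9 and ODC1 lie to the left of their lists, and WARS1, at 2.87, lies far to the right.

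Of ribosome assembly factors, 6 of 98 were lower (6.12%, near the 7.32% of all genes) and 0 higher, and 84 had a change below 0, with a median of -0.20. Without mock library 4 the list held 2 higher (UTP6 and DDX52) and 2 lower genes and a median of -0.04, without IFN library 2 it held 2 lower, and without IFN library 4 it held 15 lower. Leaving out IFN library 1 gave 4 lower, and quantile normalization gave 25. WDR12, a partner of BOP1 in the PeBoW complex, fell by 0.71 (52.8, 43.7 and 62.3 TPM to 29.7, 31.4 and 33.8 TPM, limma adjusted p = 0.00424), and NPM3, a nucleolar chaperone, by 0.56. The others called were RPF2 (-0.64), NOP16 (-0.42), NPM1 (-0.38) and RRP1B (-0.36). BOP1 itself, not targeted in these cells, was at 51.9, 59.1 and 78.8 TPM in mock and 44.0, 32.4 and 61.6 TPM with IFN, with overlap (-0.48, adjusted p = 0.0814, and 0.0181 with the block). Of 30 genes of RNA polymerases I and III, 1 was lower (POLR1G, -0.62), a share of 3.33% against 7.32% of all genes. That count was 0 without IFN library 1 or 2, 2 without mock library 1 and 9 without IFN library 4. The blocked fit called 40 of 98 and 12 of 30 lower, beside 2576 of all 14400 genes.

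Aminoacyl-tRNA synthetases mostly did not pass, with 1 of 20 higher (5.0%) and 2 lower (10.0%), near the 7.63% and 7.32% of all genes. The list held 1 lower without mock library 4 or IFN library 2, and 6 without IFN library 4. With the block, 6 were lower and 2 higher, beside 2576 and 1772 of all 14400 genes. The member called higher was WARS1, the tryptophanyl-tRNA synthetase, which went from 112, 112 and 126 TPM to 917, 969 and 713 TPM (2.87, SE 0.14, limma adjusted p = 7.63e-13). QARS1, which charges glutamine, fell by 0.62 and FARSB, a subunit for phenylalanine, by 0.38.

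Several hosts of small nucleolar RNAs fell. In a list of 18 such noncoding genes, 7 were lower (38.9%) and 0 higher, with a median of -0.35. With the block, 10 were lower and 1 higher. Besides DANCR, SNHG9 fell by 1.69 (47.4, 47.3 and 53.1 TPM to 16.3, 12.8 and 14.7 TPM, limma adjusted p = 1.25e-07), SNHG7 by 0.79, SNHG14 by 0.67, SNHG5 by 0.54, SNHG8 by 0.52 and SNHG29 by 0.35. SNHG12 went the other way without passing (0.52, adjusted p = 0.0978, and 0.00622 with the block). By annotation, 245 tested genes had a small nucleolar RNA gene inside them on the same strand, and 17.1% of these were lower against 7.17% of 14097 others. Among ribosomal protein genes the shares were 48.3% of 29 with such an insert and 22.4% of 49 without. Of 216 hosts other than ribosomal protein genes, 13.0% were lower. Hosts had a median mock level of 42.2 TPM and the others of 14.6 TPM. Among genes at 100 TPM or more in mock, 35.9% of 78 hosts were lower against 13.2% of 1296 others. These still differed in level, with medians of 519.4 TPM for the hosts and 178.5 TPM for the others. These annotation classes were chosen after values had been seen and carry no test.

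Of 11 tested polyamine genes 3 were lower (27.3%, against 7.32% of all genes), 1 was higher (9.09%, against 7.63%) and 7 were not called. ODC1, the enzyme that starts polyamine synthesis, was at 91.1, 85.0 and 140 TPM in mock and 21.5, 16.7 and 46.0 TPM with IFN (-1.97, SE 0.38, limma adjusted p = 0.000816). AMD1, the next decarboxylase, fell by 0.59 (adjusted p = 0.00205). SAT1, which acetylates polyamines for export and breakdown, rose by 0.83 from 685, 734 and 790 TPM to 1243, 1392 and 1290 TPM (adjusted p = 0.00633). The third lower gene was OAZ2 (-0.27), an antizyme that restrains synthesis. The block called 6 lower and 2 higher, and leaving out single libraries gave 2 to 5 lower, with 2 without mock library 4 or IFN library 1 or 2 and 5 without IFN library 4.

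Proliferation genes lay below the median of all genes but few passed. In the S phase list 2 of 41 were lower and 0 higher, with a median of -0.28, and in the G2 and mitosis list 2 of 38 were lower and 0 higher, with a median of -0.55. In the main fit these shares, 4.88% and 5.26%, are below the 7.32% of all genes, while 38 of 41 and 37 of 38 members had a change below 0. The blocked fit called 15 and 26 lower, beside 2576 of all genes. With only the groups compared, 2 and 10 were lower, beside 297 of all genes. Quantile normalization gave 6 and 8 lower (1657 of all genes), and numbers 1 and 2 only gave 15 and 11 (1869 of all genes). Median-of-ratios rescaling gave 2 and 1 (844 of all genes). The G2 and mitosis count and its place beside all genes thus depended on the fit. Without mock library 4 the lists held 1 and 0 lower with medians of -0.22 and -0.44, without IFN library 2 both held 0, and without IFN library 4 they held 5 and 1. The G2 and mitosis list also held 1 lower without mock library 1, mock library 2 or IFN library 1. MCM6 of the replicative helicase was at 37.0, 35.1 and 41.7 TPM in mock and 24.6, 20.7 and 25.2 TPM with IFN (-0.67, limma adjusted p = 0.0183). TOP2A, the topoisomerase of dividing cells, was at 128, 118 and 145 TPM and then 90.5, 73.3 and 80.1 TPM (-0.67, adjusted p = 0.0185). Both calls were lost without mock library 4 (adjusted p = 0.0616 for MCM6 and 0.0668 for TOP2A) or IFN library 2 (0.091 and 0.0852).

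Most members of the stress and metabolic lists were not called, but several shares lay above those of all genes tested (7.63% higher, 7.32% lower). Lower calls made up 16.7% of heat shock genes, 15.4% of p53 targets and 12.5% of cholesterol genes. Higher calls made up 27.8% of endoplasmic reticulum chaperones and 15.4% of glycolysis and hypoxia genes. In these lists the shares called in the other direction were 0 to 5.56%. Heat shock genes gave 3 of 18 lower (DNAJB1, TCP1 and HSPE1) and 1 higher (DNAJA1), and the mock library numbered 4 stood out in some of them, with a list median of -0.27 with it and -0.04 without it. Leaving out mock library 2 gave 6 lower, and the higher call was lost on leaving out any 1 library other than mock library 4. With the block, 9 heat shock genes were lower and 1 higher. HSPA6, a strictly stress-induced chaperone outside that list and the largest fall of all by the naming rule, was at 9.15, 1.68 and 231 TPM in mock and 0.099, 0.162 and 0.297 TPM with IFN (-3.97, SE 0.86, limma adjusted p = 0.00268), and its change was -2.14 without that library (adjusted p = 0.000183). DNAJB1 was at 109, 95.4 and 620 TPM and then 61.4, 61.4 and 77.8 TPM (-1.47, adjusted p = 0.0124), with -0.61 without it. HSPA1B, at 117, 101 and 1277 TPM in mock and 109, 103 and 147 TPM with IFN, did not pass (-1.07, adjusted p = 0.204) and turned to 0.11 without it. The calls of HSPA6 and DNAJB1 were lost when only the groups compared were fitted (limma adjusted p = 0.158 and 0.242). In 8 h siFLuc cells the change of HSPA6 was 0.58, and in siBOP1 cells at 12 h it was 0.03. The part of that library's heat shock transcripts in these falls was not tested.

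Chaperones of the endoplasmic reticulum were higher in 5 of 18 cases (27.8%) and lower in 0, with 11 higher in the blocked fit and 8 without mock library 4. HSPA5, the BiP chaperone, rose by 0.56 from 216, 218 and 304 TPM to 310, 334 and 440 TPM (limma adjusted p = 0.0097, with the call lost without mock library 1 or 2 or IFN library 4 and, at 0.122, with only the groups compared), and PDIA6, HSP90B1 and PDIA4 rose by 0.36, 0.33 and 0.30. Cholesterol genes gave 3 lower of 24, MVK (-0.83) leading, and 1 higher, the sterol carrier STARD4 (1.58, adjusted p = 9.05e-10), with 3 higher without mock library 4. With the block, 7 cholesterol genes were lower and 1 higher. Targets of p53 gave 4 lower of 26, ZMAT3 (-1.10) leading, and 1 higher, the death receptor FAS (0.85), with 9 lower and 4 higher in the blocked fit. Without mock library 4 there were 2 lower and 3 higher, and without mock library 1 or IFN library 1 or 2 there were 2 lower. Glycolysis and hypoxia genes gave 4 higher of 26, HK2 leading at 1.67, with 10 in the blocked fit, and 1 lower, PFKM, which was lost without mock library 1 or IFN library 1 or 2. Of 21 genes of ERK and EGFR feedback none was called. The blocked fit called 4 of them higher and 4 lower, beside 1772 and 2576 of all 14400 genes. Without mock library 4, 2 were higher.

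The response at 12 h was set against that of other libraries. After 8 h of IFN, siFLuc cells had 898 genes above (6.24%) and 826 below (5.74%) their mock level of that time. The 8 h libraries are separate from the 12 h ones, and 1228 genes were called at both times, all with the same sign. Of the 511 genes that rose by at least 1 at 12 h, 468 were called at 8 h. When the difference between the times was itself tested, 1 gene passed (0.00694% of 14400), and 497 had an unadjusted p under 0.05. That gene was ACO1, at -1.18 after 8 h and -2.17 after 12 h, a difference of -1.0 (SE 0.15, limma adjusted p = 0.0201). The call was lost under 11 of 22 alternatives, with adjusted p up to 0.255, and the value stayed between -1.09 and -0.90. Its mean went from 51.3 ± 6.72 to 22.1 ± 2.21 TPM at 8 h (SD, n = 3). The blocked fit called 4 genes, and leaving out single libraries gave 0 to 2.

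Some class I, feedback and death receptor genes had different estimates at the 2 times without passing that test. B2M was at 1.71 after 8 h and 2.18 after 12 h. SOCS1 was at 3.88 and 3.05, IRF7 at 6.08 and 5.56, and TNFRSF10D at -3.06 and -1.68. The ribosomal protein genes RPL23 and RPS7 were at -0.84 and -0.44 after 8 h, and EIF4B was at -0.79, beside -1.21, -0.61 and -1.11 after 12 h. The median of the G2 and mitosis list was -0.20 after 8 h and -0.55 after 12 h, and that of the chemokine, cytokine and ligand list 0.91 and 1.49.

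In siBOP1 cells at 12 h, 1110 genes were higher (7.71%) and 1221 lower (8.48%), and 1610 genes were called in both siRNA groups. No gene passed the test of the difference between the siRNAs in limma, where 204 genes had an unadjusted p under 0.05 and every alternative fit also called 0. IFIT1 was at 8.39 in siFLuc and 8.69 in siBOP1 cells, ISG15 at 7.36 and 7.63, MX1 at 8.30 and 7.96, and ACO1 at -2.17 and -2.13. RPL23 was at -1.21 in siFLuc and -1.02 in siBOP1 cells, EIF4B at -1.11 and -1.16 and DANCR at -2.71 and -2.65. A difference that does not pass does not show that the responses were alike.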

How the data were processed

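RNA of A549 cells was sequenced as stranded mRNA libraries, per the labels' protocols. The authors deposited 1 table of TPM values for 60609 genes in 24 libraries. The aligner, genome build, annotation and strand setting of the counting are not given in the sources used here. TPM keeps no depth, so no counting interval is given.

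Groups came from the labels. The 8 columns numbered 4 were taken by group, because the labels number the third library otherwise. A gene was tested when 3 or more of the 6 libraries compared held 1 TPM or more of it. limma 3.58.1 in R 4.3.3 was fitted to log2(TPM + 1) over 24 libraries and 8 group means, with a trended prior, and p-values were adjusted by Benjamini and Hochberg over 14400 genes at 0.05. The interactions of time and of siRNA with IFN were tested in the same fit. The script was tested on simulated data. Same-numbered IFN and mock libraries deviated together from their group means (r = 0.26, 0.324 and 0.568 for numbers 1, 2 and 4). Numbers 1 and 2 did so as much across numbers (0.277 and 0.281), and taken alone they gave 0.02. The r values therefore do not show that libraries numbered 1 and 2 are pairs. The main fit holds no pairing, and a fit with the number as a block is given as an alternative for some of the genes and lists whose calls it changes.

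Named were the 15 largest non-overlapping rises and falls at 5 TPM or more in the higher group, up to 4 called members per direction in each list, further members needed to account for a list, and a fixed set of pathway genes. Members, lists and tests were chosen with earlier results of these data known. Gene types came from GENCODE, and promoter windows from RefSeq by symbol, taking the first listed window of a gene. Alternatives were another pseudocount, 3 filters, 2 rescalings, no trend, fewer libraries, the block, and leaving out each library. Some genes are not reported here.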

Additional observations from a re-analysis of the deposited data

Results flagged for a closer look

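The change of ACO1 with IFN differed between 8 h and 12 h in siFLuc cells by -1.0 on the log2(TPM + 1) scale (SE 0.15, limma adjusted p = 0.0201), being -1.18 at 8 h and -2.17 at 12 h. ACO1 was picked out because the difference between the times itself passed the test, and it was lower in 3 of 3 IFN libraries at 12 h. With the replicate number as a block its limma adjusted p was 0.00019. The call was lost under 11 of 22 alternatives (limma adjusted p up to 0.255). Among these were both rescalings, the fit of only the groups compared, and leaving out any 1 of the IFN libraries at 12 h.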

How the results depend on the processing

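Of the 125 genes checked that were called, 112 stayed called with their direction under every alternative in which they were tested. The call was lost under at least 1 alternative for 13 genes, and 0 reversed. Most of these genes were tested under 16 alternatives, and some, such as ZBP1 and CD74, under 15. Genes called higher numbered 683 when only the groups compared were fitted and 1772 with the replicate block. Genes called lower numbered 1657 with quantile normalization, 297 with only the groups compared, 2576 with the block, 1869 with libraries numbered 1 and 2 only, and 605 to 1396 on leaving out single libraries, with 605 without IFN library 2, 665 without IFN library 1 and 1396 without IFN library 4. Genes lower by at least 1 numbered 179 with a pseudocount of 0.1, 57 with a filter at a mean of 5 TPM, 138 with numbers 1 and 2 only, and 74 to 144 on leaving out single libraries. The time difference was called for 0 genes with median-of-ratios rescaling and with quantile normalization, 2 with only the groups compared, 4 with the replicate block, 6 with numbers 1 and 2 only, and 0 to 2 on leaving out single libraries. Without mock library 4, JAK1 turned from -0.08 to 0.02 and HSPA1B from -1.07 to 0.11, both not called (-0.19 to 0.02 and -1.71 to 0.11 over single libraries left out), and the median of all genes was -0.02. The causes of these shifts were not tested. Depth is unknown, and groups of 3 limit the precision.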

Other observations

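Genes other than protein-coding ones also moved with IFN. By GENCODE gene type, 8.13% of 12161 protein-coding genes tested were higher and 7.77% lower. Among 430 long intergenic noncoding genes 3.95% were higher and 7.21% lower, and among 499 antisense genes 6.01% and 5.81%. Of 203 transcribed unprocessed pseudogenes, 6.4% were higher and 0.493% lower.

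Some of those that rose, such as IRF1-AS1 and PSMB8-AS1, lie beside or across interferon-stimulated genes. USP30-AS1 was at 0.259, 0 and 0 TPM in mock and 16.2, 19.8 and 9.51 TPM with IFN (3.85, limma adjusted p = 1.11e-12). IRF1-AS1, which overlaps IRF1 on the opposite strand, went from 1.44, 3.20 and 0.638 TPM to 31.2, 32.8 and 24.3 TPM (3.56). PSMB8-AS1 went from 2.59, 2.60 and 1.5 TPM to 27.6, 27.3 and 21.4 TPM (3.04). GBP1P1, a pseudogene copy of GBP1, was listed at 0 in mock and at 9.66, 10.0 and 5.99 TPM with IFN. HMGB1P3 (2.74) and ANO7L1 (2.73) were higher as well. Strand use in the counting is not stated, so reads of an antisense gene and its partner cannot be told apart, and pseudogene values may hold reads of their parent genes.

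The 13 mitochondrially encoded genes all had estimates above 0, with a median of 0.24, and none was called by limma (lowest adjusted p = 0.276). The direction rested on the mock library numbered 4, which had the lowest share of the 6 in these genes, 6.86% of TPM. Without that library the median was -0.14 and 1 gene, MT-CO3, was called lower, and with the libraries numbered 1 and 2 only it was -0.06. The medians of same-numbered differences were -0.17, 0.03 and 0.88 for numbers 1, 2 and 4.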
